A study of Mus musculus with 6 samples.

Results

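The genes described here are 6 that neutrophil precursors express at the stage when they make primary (azurophil) granules: Mpo, Elane, Prtn3, Ctsg, Ms4a3 and Serpinb1a. They were chosen by gene symbol from a table of read counts for 24421 genes, and all 6 are among the 13803 genes with enough reads to be tested. The study profiled polyadenylated RNA of lineage-depleted femoral bone marrow from C57BL/6 mice to ask how these cells respond to DEK protein given from outside. Every library, the controls included, came from marrow with the genotype Dek -/-, so no library carries the wild-type gene. There were 3 libraries of vehicle-treated cells and 3 of cells treated with exogenous DEK, each numbered 1 to 3. The labels used here give no dose, duration, protein source or age of the mice, and do not say whether the libraries of a group came from separate animals, so p-values measure the spread between these libraries, which may be technical.

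Primary granules are the first granules that a developing neutrophil makes, at the promyelocyte stage, and their contents are transcribed early and then shut off while later genes for secondary and tertiary granules come on. Mpo encodes myeloperoxidase, the haem enzyme that makes hypochlorous acid from hydrogen peroxide and chloride. Elane, Prtn3 and Ctsg encode the serine proteases neutrophil elastase, proteinase 3 and cathepsin G, which are activated by the dipeptidyl peptidase encoded by Ctsc. Serpinb1a encodes a cytosolic inhibitor of these proteases, and Ms4a3 encodes a membrane protein found in granulocyte-monocyte progenitors and early neutrophil precursors. The factors C/EBP alpha, PU.1, RUNX1 with its partner CBF beta, and MYB are known to act on several of these genes.

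The genes lie on 5 chromosomes of the mm10 build. Prtn3 (chromosome 10, 79879667 to 79883172, plus strand, 5 exons) ends 3139 bases before the start of Elane (79886312 to 79888216, plus strand, 5 exons), and the pair are neighbours in the table. Mpo lies on chromosome 11 (87793784 to 87804412, plus strand, 14 exons), Ctsg on chromosome 14 (56099881 to 56102574, minus strand, 5 exons), Ms4a3 on chromosome 19 (11629499 to 11640851, minus strand, 7 exons) and Serpinb1a on chromosome 13 (32842092 to 32851185, minus strand, 7 exons). No exon of the 6 genes overlaps an exon of another gene in the table. In the GENCODE M21 annotation the antisense gene Gm11505 overlaps Mpo. Strand was not used in counting, so reads of Mpo and Gm11505 cannot be told apart.

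RefSeq promoters on GRCm38.p6 were matched for 5 of the 6 genes. The 250 bases before the start site are shown 5′ to 3′ on the gene's own strand for 4 of them. Prtn3 and Elane are shown because their ratio was the steadiest of all pairs, and Mpo and Ms4a3 because they moved in opposite directions between replicate numbers. The capitals mark GGAAGT, the core to which ETS factors such as PU.1 bind.
Prtn3 (chr10:79879417-79879666, plus strand): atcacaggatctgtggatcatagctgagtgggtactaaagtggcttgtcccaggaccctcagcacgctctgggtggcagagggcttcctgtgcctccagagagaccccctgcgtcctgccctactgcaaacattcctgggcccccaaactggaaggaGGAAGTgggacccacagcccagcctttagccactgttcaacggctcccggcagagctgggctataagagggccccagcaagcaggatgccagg
Elane (chr10:79886062-79886311, plus strand): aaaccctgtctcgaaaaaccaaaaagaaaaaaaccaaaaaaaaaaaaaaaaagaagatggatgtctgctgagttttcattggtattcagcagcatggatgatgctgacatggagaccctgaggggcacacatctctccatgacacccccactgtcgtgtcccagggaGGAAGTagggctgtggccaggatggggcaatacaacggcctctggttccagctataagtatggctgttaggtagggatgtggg
Mpo (chr11:87793534-87793783, plus strand): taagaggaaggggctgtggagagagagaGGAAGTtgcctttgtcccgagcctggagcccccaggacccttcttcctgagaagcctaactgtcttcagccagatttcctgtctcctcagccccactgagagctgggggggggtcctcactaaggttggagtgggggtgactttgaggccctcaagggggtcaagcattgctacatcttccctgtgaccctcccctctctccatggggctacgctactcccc
Ms4a3 (chr19:11640852-11641101, minus strand): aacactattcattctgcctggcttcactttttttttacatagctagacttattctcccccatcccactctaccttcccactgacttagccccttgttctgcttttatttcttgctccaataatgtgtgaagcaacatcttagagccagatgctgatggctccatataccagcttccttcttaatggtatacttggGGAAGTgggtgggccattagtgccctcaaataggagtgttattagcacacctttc
The letters GGAAGT, searched on both strands, occurred in 5 of the 5 matched promoters, the fifth being that of Ctsg, and in 19.7% of 32851 RefSeq windows of the same length. In Prtn3, Elane and Mpo the core sits within the longer run GAGGAAGT, which 2.44% of the windows hold. The shorter run GAGGAA, which overlaps GGAAGT in these genes, was present in 4 of 5, the exception being Ms4a3, against 23.3% of windows. A MYB core (AACGG) was present in Prtn3 and Elane, starting 55 and 50 bases before the start site, against 14.5% of windows. TATAA was present in Prtn3, Elane and Ctsg, against 22.8% of windows, and lay on the gene's strand in the first pair, starting 32 and 31 bases before the start site. On the gene's strand, Prtn3 and Elane share an ETS core followed by a MYB core and then TATAA, an order that 7 of the 32851 windows hold (0.0213%). The RUNX letters TGTGGT were in the Ctsg window alone of the 5 (14.0% of windows), and the C/EBP letters TTGCNNAA were in none of the 5 (9.56% of windows). These letters were chosen with the sequences in view, and a match is a description of the window, not evidence of binding.

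Depth ran from 34875736 to 49128378 counts per library. Both libraries numbered 3 stood apart. The summed level of 23 genes of secondary and tertiary granules and mature neutrophils was 78001 and 75096 CPM (read counts relative to a TMM-scaled library size) in vehicle 3 and DEK 3, against 11222 to 13852 CPM in the other 4 libraries. Other marker lists moved with the number too: the summed level of 12 stem and progenitor markers was 624 and 734 CPM in the libraries numbered 3 against 965 to 1220 CPM in the rest. Lower in the libraries numbered 3 were also eosinophil markers (3633 to 5021 CPM against 8404 to 14716 CPM), basophil and mast cell markers (1554 to 1976 against 2313 to 3542 CPM) and B lineage markers (114 to 146 against 340 to 399 CPM). The sums of monocyte markers (6480 to 7211 against 8014 to 10580 CPM) and macrophage markers (830 to 946 against 1033 to 1301 CPM) were lower there too. Single macrophage markers were split. Between numbers 3 and 1, edgeR called 3 of the 11 higher and 3 lower, against 18.9% and 14.1% of all genes. The 3 higher were C1qb, C1qc and Mertk, by 1.54, 0.92 and 1.25 in log2 (adjusted p = 0.00197, 0.0245 and 0.0314, edgeR). Higher in the libraries numbered 3 were the sums of erythroid markers (2596 to 4707 against 835 to 1134 CPM) and genes of the antigens used for lineage depletion (3689 to 4806 against 2499 to 3302 CPM). The ranges overlapped for megakaryocyte markers and for T and NK cell markers. Transcripts of lineage cells were thus present in the depleted marrow. Dek itself was counted at 16.5 to 21.8 CPM in the 6 libraries. The labels do not say which exons are deleted, and its exons overlap those of Kdm1b, so that level does not check the genotype.

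Together the 6 genes held about as many reads with vehicle as with DEK, and they did so in libraries that differed several-fold in later neutrophil transcripts. They took 0.975%, 0.939% and 0.911% of counts in vehicle 1, 2 and 3 and 1.04%, 1.09% and 0.682% in DEK 1, 2 and 3. DEK 2 was highest and DEK 3 lowest, and the groups overlapped. The single gene Rn45s took 4.89% of counts in vehicle 1 and 0.159% to 0.331% in the other libraries, which lowers the share of other genes in vehicle 1. The Wilson 95% interval of the lowest share, 0.680% to 0.685%, covers counting error only. Summed over the 6 genes, vehicle libraries averaged 9351 ± 369 CPM (SD, n = 3). DEK libraries averaged 9341 ± 1550 CPM (SD, n = 3). In a bulk sample, fewer precursors and less RNA per precursor cannot be told apart.

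Per length, myeloperoxidase transcripts were the most abundant of the 6. Mean levels over the 6 libraries, in RPKM (CPM divided by the gene length in kilobases that the table gives), were 2061 ± 348 for Mpo and 1396 ± 167 for Elane (SD, n = 6). Prtn3 stood at 1106 ± 137 RPKM and Ctsg at 867 ± 110 RPKM (SD, n = 6). Ms4a3 stood at 418 ± 92.3 RPKM and Serpinb1a at 236 ± 80.5 RPKM (SD, n = 6). This order held in 6 of 6 libraries. Between neighbours in the order, the ranges of RPKM over libraries were separate for Ctsg over Ms4a3, where 717 was the lowest and 541 the highest, and they overlapped for the other 4 neighbouring pairs. Mpo ranked between 11 and 30 by RPKM among all genes of the table, and Serpinb1a between 144 and 364.

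**Figure D1:**
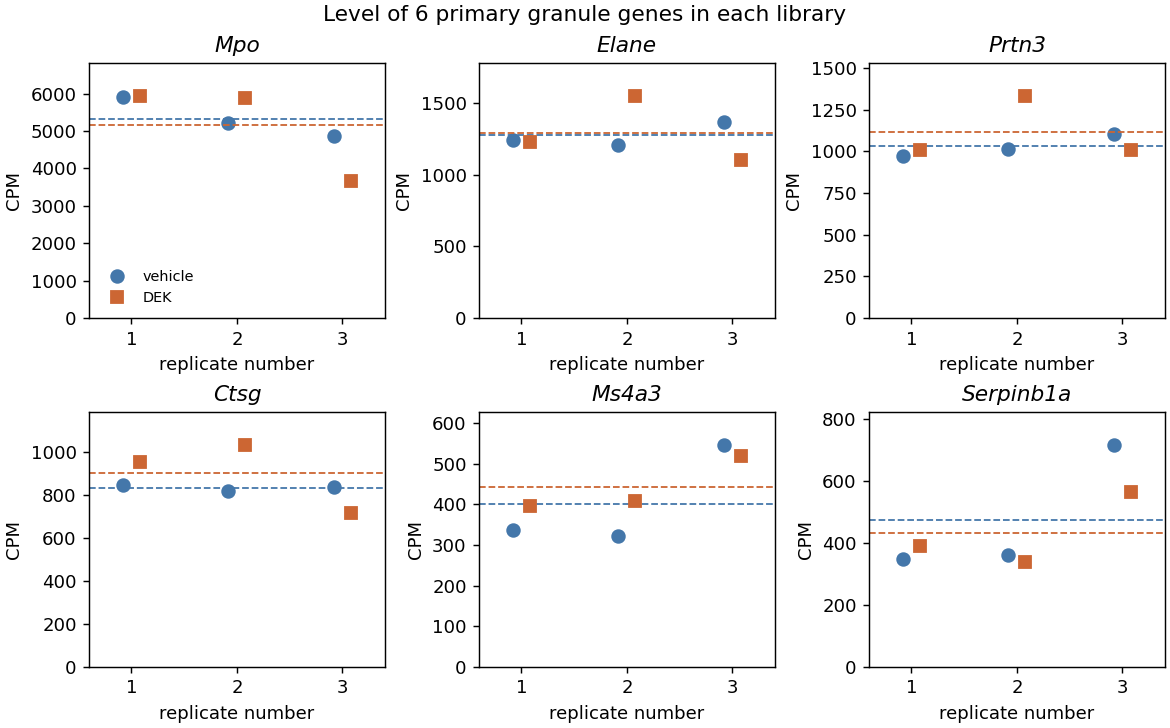
Level of each of the 6 genes (CPM, y axis from 0) in every library by replicate number (x axis), with vehicle as blue circles, DEK as orange squares and the mean of each group as a dashed line. DEK 3 is the lowest point for Mpo at 3672 CPM, and both libraries numbered 3 are the highest points for Ms4a3 and Serpinb1a.

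The peroxidase gene Mpo stood at 5913, 5218 and 4873 CPM in vehicle 1, 2 and 3, and at 5928, 5874 and 3672 CPM in DEK 1, 2 and 3. DEK 3 was the lowest library, the remaining DEK libraries were close to vehicle 1, and the groups overlapped. The log2 difference, DEK minus vehicle, was -0.05 ± 0.23 (SE), with a 95% interval from -0.59 to 0.49 and an adjusted p of 1.00 in edgeR's quasi-likelihood test without a block. With the replicate number as a block it was -0.08 ± 0.13 (SE), with an interval from -0.36 to 0.21 (adjusted p = 0.871, edgeR).

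Among the 3 serine proteases, Elane stood at 1244, 1208 and 1371 CPM with vehicle and at 1230, 1546 and 1105 CPM with DEK, in the order of replicate number. The highest and the lowest library both belonged to the DEK group. Its log2 difference was 0.02 ± 0.17 (SE) without the block and 0.01 ± 0.13 with it (adjusted p = 1.00 and 0.989, edgeR). Prtn3 stood at 975, 1015 and 1106 CPM with vehicle and at 1008, 1330 and 1006 CPM with DEK. Only DEK 2 lay above all vehicle libraries for this gene. The log2 difference of Prtn3 was 0.11 ± 0.16 (SE) without the block and 0.10 ± 0.12 with it (adjusted p = 1.00 and 0.796, edgeR). Ctsg stood at 845, 821 and 839 CPM with vehicle and at 955, 1034 and 719 CPM with DEK. DEK 1 and DEK 2 lay above the narrow vehicle range and DEK 3 below it. The log2 difference of Ctsg was 0.11 ± 0.17 (SE) without the block and 0.10 ± 0.12 with it (adjusted p = 1.00 and 0.810, edgeR).

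Ms4a3, the membrane protein gene, stood at 336, 321 and 546 CPM with vehicle and at 396, 409 and 520 CPM with DEK. Both libraries numbered 3 were the highest, and the groups overlapped. Its log2 difference was 0.14 ± 0.24 (SE) without the block and 0.17 ± 0.11 with it, the latter with a 95% interval from -0.06 to 0.40 (adjusted p = 1.00 and 0.584, edgeR). Serpinb1a, the inhibitor gene, stood at 347, 359 and 716 CPM with vehicle and at 389, 338 and 565 CPM with DEK. Again both libraries numbered 3 were the highest and vehicle 3 led. The log2 difference of Serpinb1a was -0.14 ± 0.34 (SE) without the block, with an interval from -0.96 to 0.68, and -0.09 ± 0.11 with it, with an interval from -0.33 to 0.15 (adjusted p = 1.00 and 0.816, edgeR).

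Thus 0 of the 6 genes passed an adjusted p of 0.05 for DEK against vehicle in edgeR. Without the block the test called 0 of the 13803 genes (0%), while 360 had an unadjusted p under 0.05. For all genes, DESeq2 called 58 and limma-voom called 0, and neither called one of the 6. With the replicate block edgeR called 0.869% of genes higher and 0.413% lower with DEK, 177 in all. The 3 DEK libraries lay wholly above or below the 3 vehicle libraries in 0 of the 6 genes, against 7.19% of all genes. The median log2 difference of the 6 genes within replicate numbers was 0.05, and that of all genes was -0.0028. With the block, the 95% intervals of the log2 difference reached 0.40 for Ms4a3 and -0.36 for Mpo, so changes of that size are within what these libraries allow. Without the block the intervals were wider, from -0.59 to 0.49 for Mpo and wider still for Serpinb1a, so that fit allows larger changes.

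**Figure D2:**
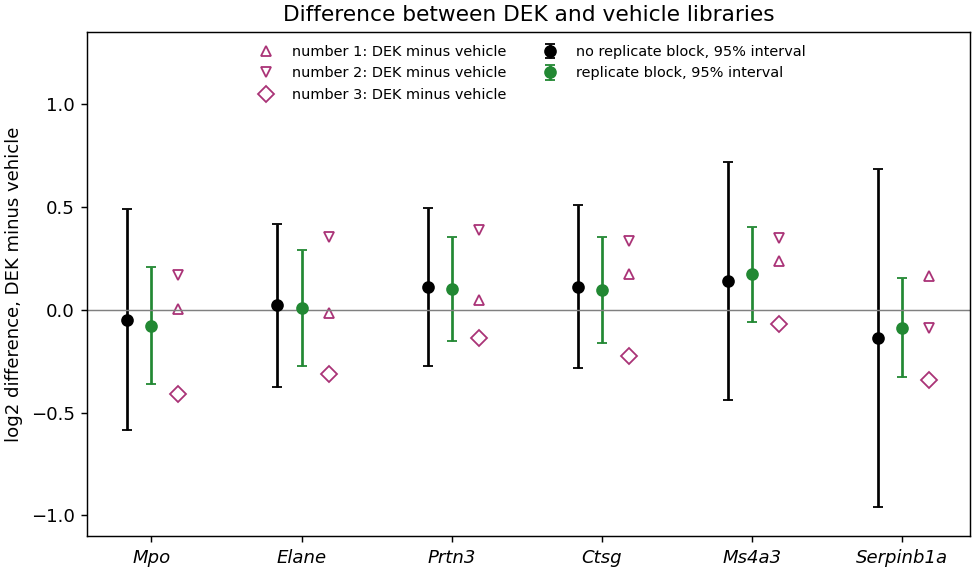
Difference between DEK and vehicle (log2, y axis) for each gene, with black and green points for the fits without and with the replicate block, bars for their 95% intervals, and open symbols for the single differences at equal replicate number. All 12 intervals span 0, and the diamonds for number 3 lie below 0 for all 6 genes.

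Within equal replicate numbers the single differences were not alike. At number 1, the log2 difference between DEK and vehicle was above 0 for 5 of 6 genes, and ran from -0.02 for Elane to 0.24 for Ms4a3. At number 2 it was above 0 for 5 of 6, from -0.09 for Serpinb1a to 0.39 for Prtn3. At number 3 it was below 0 for 6 of 6, from -0.41 for Mpo to -0.07 for Ms4a3, with a median of -0.27. Of all genes tested, 46.6% were higher with DEK at number 1, 51.1% at number 2 and 49.5% at number 3, where the median was -0.0028. Scaled by library totals alone, an alternative added after the data were seen, the counts were 6, 5 and 0 of 6. Those totals include the high share of Rn45s in vehicle 1 (4.89%), which raises the plain differences at number 1. Whether the response differs between numbers could not be tested, since each number has 1 library per treatment. Without both libraries numbered 3, the log2 differences were 0.09 for Mpo, 0.18 for Elane, 0.23 for Prtn3, 0.26 for Ctsg, 0.29 for Ms4a3 and 0.04 for Serpinb1a, and edgeR without a block called 0 of the 6 and 168 of all genes (adjusted p from 0.354 to 0.934 for the 6).

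Across replicate numbers, with treatment kept as a term, the inhibitor gene Serpinb1a and Ms4a3 were higher in number 3, while the 3 protease genes did not pass. Mpo was called lower in number 3 than in number 1 alone, and not in the test of both number terms (adjusted p = 0.0784, edgeR). The test of both number terms called Serpinb1a (adjusted p = 0.000494, edgeR) and Ms4a3 (adjusted p = 0.00663), so 2 of the 6 genes, against 31.6% of all genes tested, a share near that background. From number 1 to number 3, Serpinb1a rose by 0.79 ± 0.14 in log2 (SE; adjusted p = 0.000939, edgeR) and Ms4a3 rose by 0.55 ± 0.13 (adjusted p = 0.00669), against 18.9% of all genes called higher. Mpo fell by 0.48 ± 0.16 (adjusted p = 0.0388, edgeR), against 14.1% of all genes called lower. Elane differed by 0.0016, Prtn3 by 0.09 and Ctsg by -0.20 (adjusted p from 0.305 to 0.996, edgeR).

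From number 2 to number 3, Serpinb1a rose by 0.87 ± 0.14 (adjusted p = 0.000478, edgeR) and Ms4a3 by 0.56 ± 0.13 (adjusted p = 0.00635), against 18.4% of all genes called higher. For Mpo that difference was -0.38 ± 0.16 (adjusted p = 0.0868), so 0 of the 6 were called lower, against 14.8% of all genes. Between numbers 1 and 2, 0 of the 6 were called in either direction, against 0.0507% of all genes called higher and 0% lower. Scaling by library totals alone moved the median of all genes to -0.16 for number 3 minus 1, from -0.02. It also put Mpo past the threshold in both contrasts with number 3 (adjusted p = 0.00403 and 0.0108, edgeR), and Ctsg in number 3 minus 2 (adjusted p = 0.0344). The split of genes called higher and lower between numbers 3 and 1 was 2605 and 1946 with TMM and 2086 and 3368 with library totals.

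The call for Mpo between numbers 3 and 1 missed the threshold in 5 of the 6 fits that left out 1 library. Relative to the mean of the first 2 numbers in the same group, Mpo in number 3 was at 0.876-fold with vehicle and at 0.622-fold with DEK. Serpinb1a stood at 2.03-fold with vehicle and 1.55-fold with DEK, and Ms4a3 at 1.66-fold and 1.29-fold. Without DEK 3 the difference of Mpo between numbers 3 and 1 was -0.23 (adjusted p = 0.466, edgeR), and it also missed the threshold when vehicle 1, vehicle 2, DEK 1 or DEK 2 was left out (adjusted p from 0.0700 to 0.240). Without vehicle 3 it was -0.74 (adjusted p = 0.00226, edgeR). Without vehicle 3, Ctsg too was called lower in number 3 than in number 1, by -0.46 (adjusted p = 0.0324, edgeR). The rise of Ms4a3 over number 1 missed the threshold without vehicle 1, vehicle 3 or DEK 1 (adjusted p = 0.0907, 0.0941 and 0.0581, edgeR), and its rise over number 2 missed it without vehicle 2 or vehicle 3 (adjusted p = 0.157 and 0.0722). The rise of Serpinb1a held in each of the 6 fits that left out 1 library (adjusted p up to 0.0360 against number 1 and 0.0477 against number 2, edgeR).

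**Figure D3:**
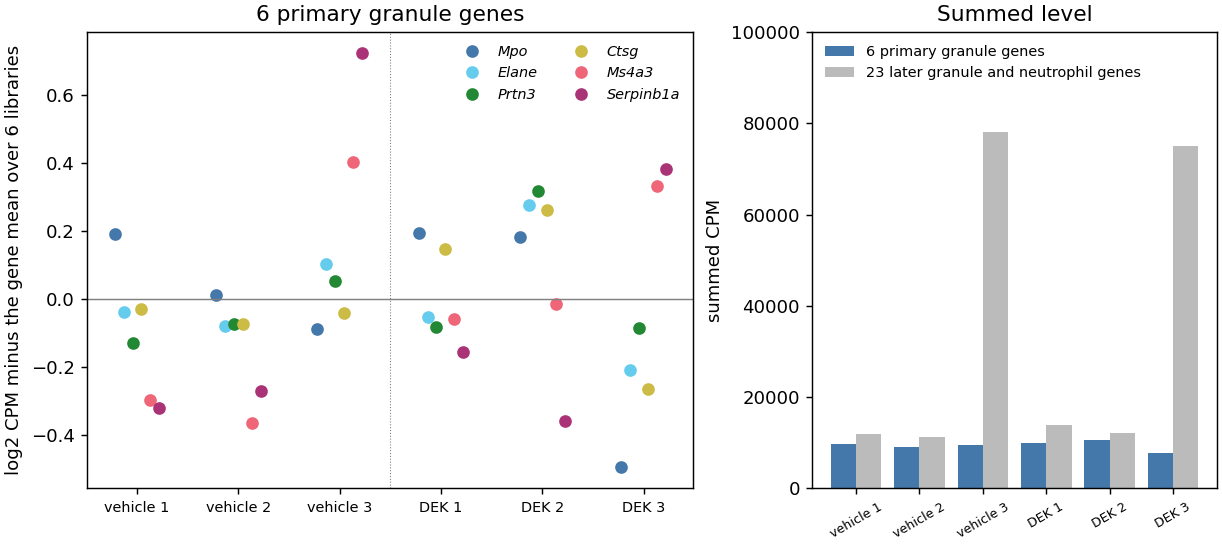
Left, log2 CPM of each of the 6 genes minus its mean over the 6 libraries (y axis) by library (x axis). Right, summed level (CPM, bars from 0) of the 6 genes in blue and of 23 later granule and neutrophil genes in grey. The blue bars lie between 7587 and 10530 CPM, while the grey bars stand at 78001 and 75096 CPM in vehicle 3 and DEK 3.

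The make-up of the set shifted with the number. Of the reads of the 6 genes, Mpo took 58.4% to 61.2% in vehicle 1 and 2 and 51.6% in vehicle 3. It took 55.8% to 59.8% in DEK 1 and 2 and 48.4% in DEK 3. Serpinb1a took 3.21% to 4.02% in the 4 libraries numbered 1 or 2, and 7.58% and 7.45% in vehicle 3 and DEK 3. The ratio of Mpo to Serpinb1a was the most variable of the 15 ratios between the 6 genes, with an SD of 0.66 in log2 CPM and a 2.68-fold range over the 6 libraries. The ratio of Elane to Prtn3, the neighbours on chromosome 10, was the steadiest, with an SD of 0.0762 and a 1.16-fold range. The ratio of the 23 later genes to the 6 ran from 1.14 to 1.40 in the libraries numbered 1 or 2 and was 8.25 and 9.90 in vehicle 3 and DEK 3.

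Relatives and neighbours of the 6 genes did not share one pattern. Mcpt8, a basophil protease gene that lies beside Ctsg, stood at 1179, 1190 and 464 CPM with vehicle and 822, 656 and 406 CPM with DEK, and was lower in number 3 than in number 1 by -1.17 in log2 (adjusted p = 0.000263, edgeR). Ms4a2, which encodes a chain of the IgE receptor and lies beside Ms4a3, was lower by -0.89 (adjusted p = 0.00218), the direction opposite to that of Ms4a3. Lpo, the lactoperoxidase gene 2015 bases from Mpo, was counted at 0.255 to 1.00 CPM in the 6 libraries and did not pass (adjusted p = 0.501 for number 3 minus 1, edgeR). Bzrap1, on the other side of Mpo, was higher in number 3 than in number 1 by 0.88 (adjusted p = 0.00111). Lppr3 beside Prtn3, Wrnip1 beside Serpinb1a and Oosp2 beside Ms4a3 did not pass (adjusted p from 0.134 to 0.946, edgeR). Cfd beside Elane, Gzme beside Ctsg and Serpinb1c beside Serpinb1a had too few reads to be tested, at most 0.416 CPM in any library.

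The genes whose profile across the 6 libraries was most like that of the set are on none of the granule lists used here. Likeness was the root mean square difference in log2 CPM, each gene centred on its mean, from the average of the 6 genes. The search covered 8920 tested genes outside the set whose mean reached 10 CPM, leaving out symbols of the Gm-number or Rik kind. The 6 nearest were Bud13 at 0.0283, Mcm4 at 0.0291, Dut at 0.0315, Cbx5 at 0.0370, Ahsa2 at 0.0374 and Fntb at 0.0388. Mcm4 encodes a subunit of the replicative helicase and Dut encodes the dUTPase. The exons of Ahsa2 overlap those of Usp34, so its count is uncertain. The 6 genes themselves lay farther from their own average, from 0.108 for Elane to 0.362 for Serpinb1a.

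The list of other azurophil and promyelocyte genes is broad, and a place in it, as for Hp, does not make a gene an azurophil granule gene. Without the block 0 of its 13 tested genes passed in edgeR. In edgeR's fit with the replicate block 2 rose with DEK and 1 fell, against 0.869% and 0.413% of all genes. Markers of other cells moved with DEK in the same fit: 3 of 11 macrophage markers fell, with a median log2 difference of -0.88 for the list, and 2 of 10 eosinophil markers fell, with a median of -0.49. Their part in the calls below was not tested. Hp, the haptoglobin gene, stood at 739, 757 and 1049 CPM with vehicle and 1211, 1820 and 1735 CPM with DEK, 1.87-fold higher (adjusted p = 0.00739, edgeR). Every DEK library lay above every vehicle library. Clec5a, a myeloid lectin receptor gene, was 1.50-fold higher (adjusted p = 0.0195, edgeR with the block). Its groups overlapped, with vehicle 3 at 360 CPM above DEK 1 at 293 and DEK 2 at 288 CPM. Clec5a was also higher in number 3 than in number 1, by 0.81 in log2 (adjusted p = 0.00061, edgeR). Cd63, which encodes a tetraspanin of azurophil granule membranes, was 1.36-fold lower with DEK (adjusted p = 0.0415, edgeR with the block). The median log2 difference of the list was 0.03. Leaving out number 1, 2 or 3 from the blocked fit left 1, 0 and 4 of the list called. Without number 2 that fit called 0 of all genes, so every call with the block named here is lost there.

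Of the 17 genes for processing and sorting of granule proteins, 0 passed in either fit. Ctsc, whose product activates the 3 proteases, stood at 781, 863 and 940 CPM with vehicle and 973, 1053 and 1387 CPM with DEK, a log2 difference of 0.39 ± 0.10 (SE; adjusted p = 0.111, edgeR with the block). All DEK libraries lay above the vehicle libraries for Ctsc, which is singled out after its values were seen. Calr, which encodes the chaperone calreticulin, and Srgn, which encodes the granule proteoglycan serglycin, differed by 0.08 and -0.08 in log2 (adjusted p = 0.823 and 0.834, edgeR with the block).

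Of the 12 tested inhibitors of granule proteases, 1 rose with DEK in the blocked fit. Slpi, the secretory leukocyte protease inhibitor, stood at 327, 294 and 355 CPM with vehicle and 567, 584 and 503 CPM with DEK, 1.70-fold higher (adjusted p = 0.00739, edgeR with the block). The 2 groups did not overlap for Slpi, unlike for Serpinb1a. Exons of the microRNA gene Mir7678 overlap Slpi on the opposite strand. Of the 14 regulators, 1 rose in the blocked fit: Cebpd, a C/EBP factor gene, was 1.55-fold higher (adjusted p = 0.0107), and its exons overlap those of Spidr, so its count is uncertain. Without the block 0 genes of either list passed in edgeR or limma-voom, and DESeq2 called 1 gene of each list.

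Among relatives of the 6 genes, the MS4A family had 1 call in each direction with DEK in the blocked fit among 9 tested. Ms4a4c stood at 208, 237 and 214 CPM with vehicle and 346, 352 and 376 CPM with DEK, 1.63-fold higher (adjusted p = 0.00524, edgeR with the block). Ms4a7, a monocyte and macrophage gene, stood at 39.1, 38.9 and 36.0 CPM with vehicle and 16.5, 15.9 and 22.8 CPM with DEK, 2.09-fold lower (adjusted p = 0.00534). The groups did not overlap for either gene. Of 3 tested relatives of Mpo, the eosinophil peroxidase gene Epx was 1.58-fold lower (adjusted p = 0.0107, edgeR with the block). It stood at 2504, 2195 and 678 CPM with vehicle and 1764, 1356 and 394 CPM with DEK, lower with DEK at each number while the groups overlapped. Of 8 tested serine protease relatives, a list that holds Elane, Prtn3 and Ctsg, 0 passed, and of 9 enzymes of haem synthesis 0 passed.

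Of the marker lists, 2 of 11 monocyte markers rose with DEK in the blocked fit. Ly6c2, also an antigen gene of the lineage depletion, was 1.42-fold higher (adjusted p = 0.0376, edgeR with the block) and Cx3cr1 1.54-fold higher (adjusted p = 0.00827), while Ms4a7 fell, as given above. The 3 of 11 macrophage markers called lower, against 0.413% of all genes, were C1qb (2.99-fold), Mertk (4.28-fold) and C1qc (2.22-fold). Their adjusted p ran from 0.0107 to 0.0339 (edgeR with the block). All 3 were low, with means of 7.22, 2.12 and 3.10 CPM. The more abundant macrophage markers Adgre1 (mean 482 CPM) and Vcam1 (288 CPM) were not called. The eosinophil markers called lower were Epx and Prg3 (1.47-fold, adjusted p = 0.0382, edgeR with the block). In the same fit 0 genes passed among the basophil and mast cell, erythroid, megakaryocyte, B lineage, T and NK cell, and stem and progenitor markers.

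Across replicate numbers the regulators moved in both directions, with 2 of 14 higher in number 3 than in number 1 and 4 lower, against 18.9% of all genes higher and 14.1% lower. The following genes are named after their values were seen. Cebpe, a factor of the later granule stages, was higher by 0.82 ± 0.11 in log2 and Gfi1 by 0.64 ± 0.15 (SE; adjusted p = 0.000166 and 0.00804, edgeR). Cebpa was lower by -0.49 ± 0.12 and Irf8, a factor of the monocyte lineage, by -0.74 ± 0.17 (adjusted p = 0.00659 and 0.00811). Runx1 and Cbfb, the other pair called lower, differed by -0.38 ± 0.11 and -0.55 ± 0.12 (adjusted p = 0.0216 and 0.00397, edgeR). Spi1, which encodes PU.1, and Myb did not pass, with differences of 0.24 and -0.28 (adjusted p = 0.152 and 0.0929, edgeR).

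The later granule genes moved with the number far more than the 6 did. In number 3 against number 1, 9 of 11 secondary granule genes and 11 of 12 tertiary granule and mature neutrophil genes were higher, against 18.9% of all genes. In both lists 0 were lower, against 14.1% of all genes. The median log2 differences were 1.90 and 2.43, where the median of the 6 primary granule genes was 0.05. Lcn2, which encodes the iron-binding lipocalin of secondary granules, stood at 236, 218 and 2289 CPM with vehicle and 396, 404 and 2889 CPM with DEK. It was 1.58-fold higher with DEK in the blocked fit (adjusted p = 0.0206, edgeR), the single call among the 11 secondary granule genes, against 0.869% of all genes called higher. The blocked fit called 0 of the 11 without number 1, 0 without number 2 and 2 without number 3. Of the 12 tertiary genes 0 passed, and S100a9 and S100a8, the most abundant, differed by -0.10 and -0.03 in log2 between DEK and vehicle (adjusted p = 0.816 and 0.944, edgeR with the block). Of 12 stem and progenitor markers, 8 were lower in number 3 than in number 1, against 14.1% of all genes, and 0 higher, with a median of -0.85. What part these shifts in cell markers have in the differences of Mpo, Ms4a3 and Serpinb1a was not tested.

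**Figure D4:**
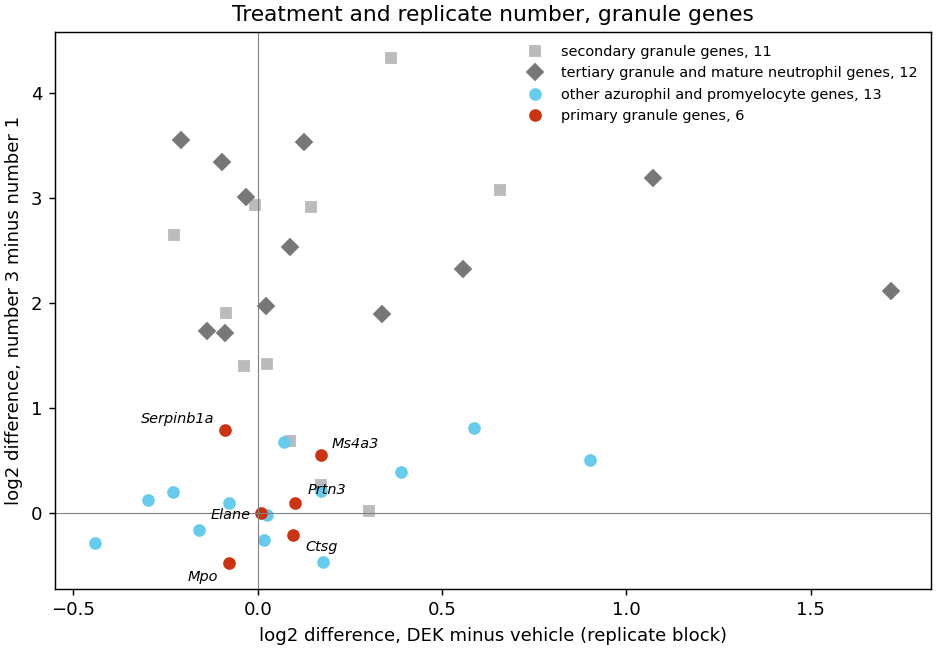
Log2 difference between DEK and vehicle with the replicate block (x axis) and between numbers 3 and 1 (y axis). Points show the 6 genes in red and 13 from the list of other azurophil and promyelocyte genes in light blue. Grey squares show 11 secondary granule genes and dark diamonds 12 tertiary granule and mature neutrophil genes. The red points lie between -0.48 and 0.79 on the y axis, while the medians of the secondary and tertiary genes are 1.90 and 2.43.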

How the data were processed

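RNA of 6 libraries was measured, 3 per group. The authors deposited read counts per gene; per the file headers, featureCounts 1.6.1 summed exon reads by gene on mm10, from lane 6, without a strand option, and reads shared between overlapping genes were not counted. The submitters' processing notes list Trim Galore, STAR, HTSeq and edgeR. Since no strand was used, an antisense transcript that lacks a row adds to its partner.

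Of 18049 genes with a read, 13803 passed filterByExpr and were tested in R 4.3.3 with edgeR 4.0.16 (TMM, robust quasi-likelihood test, two-sided, Benjamini-Hochberg over all genes tested, threshold 0.05) on counts as deposited, without a block. Alternatives were the replicate number as a block, DESeq2 1.42.0, limma-voom (limma 3.58.1), other scalings, no filter, Rn45s left out, and libraries left out. Log2 CPM used a prior count of 2. The scripts were tested on simulated data.

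Deviations from group means correlated across genes at 0.55, 0.56 and 0.80 for equal replicate numbers 1, 2 and 3. By a rule of over 0.1 the numbers were taken as pairs, although the labels do not say that they share an animal or day. Vehicle 2 with DEK 1 reached 0.52 and vehicle 1 with DEK 2 reached 0.41. Unequal numbers thus passed the rule too, so it does not tell which libraries numbered 1 and 2 form pairs. In edgeR, the block lowered the common coefficient of biological variation from 33.1% to 13.1%.

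The members, 20 further gene lists and the tests were chosen with earlier results of these data known. Named genes are the 6, up to 3 called genes per list in the blocked fit or else the 2 most abundant, the 6 of most like profile and the neighbours; the text names the exceptions. Of these, the text gives the genes of granule, regulator, family and marker lists with a call, and describes the other lists by counts or summed levels. Some values are not reported here. Sequences are from RefSeq. Reads carry no molecular identifiers.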

Additional observations from a re-analysis of the deposited data

How the results depend on the processing

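For DEK against vehicle, 0 of the 6 genes passed in any of 20 alternatives, and their log2 difference kept its sign in 103 of 120 values and changed it in 17. The count of all genes called, 0 without a block, was 177 with the replicate block, 368 with the replicate block and library totals alone, and 58 in DESeq2. Without the block, leaving out single libraries or whole numbers gave 0 to 168 genes, with 168 without number 3. The blocked fit gave 181, 0 and 641 genes without number 1, 2 and 3. Over the leave-out fits without the block, the log2 difference ran from -0.16 to 0.14 for Mpo, -0.15 to 0.18 for Elane, -0.036 to 0.23 for Prtn3, 0.0031 to 0.26 for Ctsg, 0.0005 to 0.43 for Ms4a3 and -0.39 to 0.29 for Serpinb1a. In the fit with the replicate block it changed sign without number 3 for Mpo (0.087) and Serpinb1a (0.039), and without number 2 for Elane (-0.15), Prtn3 (-0.033) and Ctsg (-0.012). For Elane it was -0.011 with the replicate block and library totals alone. Across replicate numbers, leaving out 1 library gave 2584 to 4150 genes called, where all libraries gave 4357, with the lowest counts without DEK 2 (2584) and vehicle 2 (2740). It gave 1 to 3 of the 6 called, with 1 when vehicle 2 was left out. Other scalings or no filter on low counts gave 4307 to 5674 genes and 2 to 3 of the 6. Fits with fewer libraries have fewer degrees of freedom, and otherwise the cause was not tested. A fit that leaves 1 library at a number assumes that it varies like the rest.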
